A study of Homo sapiens with 11 samples.

Results

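The miR-221 and miR-222 pair comprises 4 mature miRNAs, hsa-miR-221-3p, hsa-miR-221-5p, hsa-miR-222-3p and hsa-miR-222-5p, which were taken by name from the 2576 mature miRNAs counted in 11 small RNA libraries. All 4 were listed in both experiments, but their counts were low. hsa-miR-221-3p passed the filter on low counts in both experiments, hsa-miR-222-3p passed it in pre-treatment only, and the 5p arms passed it in neither. The members were chosen by name, with the pair selected on the co-treatment log2FC of hsa-miR-221-3p, which was already known to be large. For this reason the co-treatment values of the members are given as a description, with no test, and tests of the members were confined to pre-treatment, which used other libraries.

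A miRNA hairpin is cut by Drosha and Dicer into a duplex, and the arm that is loaded into Argonaute guides the repression of mRNAs that match its seed, while the other arm is mostly degraded. MIR221 and MIR222 lie next to each other on the X chromosome, are made from a shared primary transcript and carry 3p arms with a common seed. The pair is best known for repressing the cell-cycle inhibitors CDKN1B and CDKN1C and the receptor KIT, and its transcription is known to be driven by NF-kB and AP-1 factors.

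In GRCh37, the assembly called hg19 to which the authors aligned the reads, the MIR221 hairpin spans chrX:45605585-45605694 and the MIR222 hairpin chrX:45606421-45606530, both on the minus strand with 726 bases between them. They lie inside the long non-coding host gene MIR222HG (chrX:45604638-45629677). The MIR221 hairpin overlapped an exon of 1 of 4 annotated host transcripts and that of MIR222 was intronic in all 4. The hairpins are shown because they hold every read counted for the pair. Capitals mark the mature arms listed by RefSeq (table of build GRCh38.p14), and the genome sequence of GRCh37 was identical over both hairpins. hsa-miR-221-5p had no entry.
MIR221: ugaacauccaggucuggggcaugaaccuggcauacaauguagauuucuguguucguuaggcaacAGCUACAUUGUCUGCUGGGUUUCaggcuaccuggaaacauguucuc
MIR222: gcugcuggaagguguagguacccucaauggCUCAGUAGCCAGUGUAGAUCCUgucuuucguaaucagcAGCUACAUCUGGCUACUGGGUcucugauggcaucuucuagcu

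The mature sequences are shown to compare the seeds, bases 2 to 8, which are in capitals.
hsa-miR-221-3p: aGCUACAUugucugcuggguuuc
hsa-miR-222-3p: aGCUACAUcuggcuacugggu
hsa-miR-222-5p: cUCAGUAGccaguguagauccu

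The 3p arms, of 23 and 21 bases, shared their first 8 bases and 18 identical bases in a global alignment. Their seed pairs with AUGUAGC in a target. Among 2370 mature human miRNAs in the table, no miRNA outside the pair had the same bases 2 to 8, and hsa-miR-187-5p alone shared bases 2 to 7, with 40 counts over all 11 libraries. No other miRNA in the table had the seed of hsa-miR-222-5p.

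The cells were SH-SY5Y, a human neuroblastoma line derived from SK-N-SH, so that all groups share the origin of a single tumour. Cells of all 4 groups were differentiated with all-trans retinoic acid (ATRA) for 7 days. In co-treatment (AH), H2O2 at 10 µM was present during these 7 days (3 control and 3 H2O2 libraries), and in pre-treatment (HA) it was applied for 72 h and removed before ATRA (2 control and 3 H2O2 libraries), while the controls received ATRA without H2O2. The submitters describe biological triplicates from which an outlying sample was removed. Totals ranged from 5343953 to 8927582 counts (median 7425640), so that 3 counts, taken as the limit of detection, amounted to 0.336 to 0.561 CPM (reads relative to library size). CPM below are scaled with TMM factors over the 11 libraries. All 10 neuronal miRNAs of a fixed list had reads, with group means of hsa-miR-137 from 14820 to 31190 CPM, but the neuron marker hsa-miR-124-3p had 0 to 7 counts. Pre-treatment control 1 stood apart. It had 540 counts of hsa-miR-223-3p, a myeloid miRNA, against 3 to 35 in the other libraries. It also had 1007 of hsa-miR-205-5p, an epithelial miRNA, against 10 to 32. Other blood cell and epithelial miRNAs went both ways there. hsa-miR-142-3p was also highest in that library (182 counts), whereas hsa-miR-451a (6 counts) and hsa-miR-200a-3p (22 counts) were not high.

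hsa-miR-221-3p, the guide arm of MIR221 (chrX:45605608-45605630), was the most abundant member in every library. In co-treatment it had 7, 3 and 4 counts in the controls and 37, 26 and 54 counts in the H2O2 libraries. In pre-treatment it had 52 and 17 counts in the controls and 97, 71 and 35 counts in the H2O2 libraries. The co-treatment controls were the lowest of all 11 libraries and the groups of that experiment did not overlap, whereas in pre-treatment the lowest H2O2 library lay between the controls. The 95% Poisson intervals, which cover counting error only, reached from 0.619 to 14.4 counts in the co-treatment controls and from 17.0 to 70.5 counts in the H2O2 libraries of that experiment. Even in the library with the highest CPM, pre-treatment H2O2 replicate 1, hsa-miR-221-3p ranked 377 among 1237 detected miRNAs, and in co-treatment control 2 it ranked 922 among 1218.

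**Figure D1:**
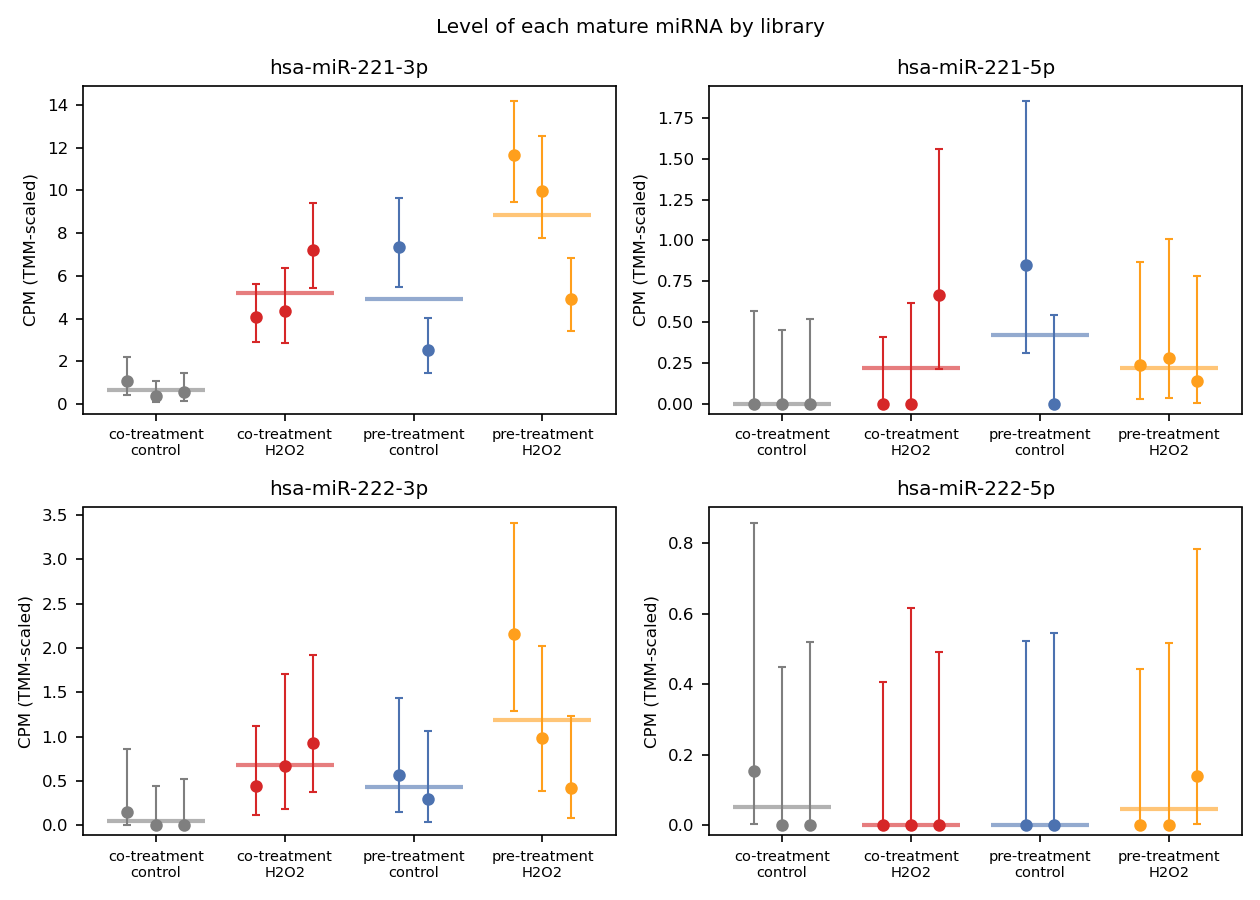
TMM-scaled CPM (y axes, 1 scale per panel) of the 4 mature miRNAs in each library (points, by group on the x axes), with 95% Poisson intervals as error bars and group means as horizontal lines. hsa-miR-221-3p lay between 0.366 and 1.08 CPM in the co-treatment controls and between 2.52 and 11.7 CPM in the other 8 libraries, while both 5p arms stayed under 1 CPM.

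As a level, hsa-miR-221-3p averaged 5.21 ± 1.72 CPM (SD, n = 3) with H2O2 and 0.670 ± 0.368 CPM (SD, n = 3) without it in the co-treatment condition. The difference was a log2FC of 2.94 (SE 0.50), or 7.66-fold, the second largest positive log2FC among 790 miRNAs tested. This value was among those that led to the choice of the pair, and 2 of the 3 controls lay below the minimum of the filter on low counts, which the H2O2 libraries passed. For comparison, in 20.8% of the miRNAs tested in co-treatment all H2O2 libraries lay above all controls, and the median log2FC over all miRNAs tested was −0.04. When single libraries were omitted, the log2FC lay between 2.62 and 3.48.

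In the pre-treatment condition, hsa-miR-221-3p averaged 8.84 ± 3.50 CPM (SD, n = 3) with H2O2 and 4.93 ± 3.42 CPM (SD, n = 2) without it, with overlapping groups. The log2FC was 0.83 (SE 0.57), which did not pass edgeR's exact test (FDR = 0.438 over 868 miRNAs, Benjamini-Hochberg adjusted; FDR = 0.376 with the quasi-likelihood test). In that experiment 15.3% of the miRNAs tested were called by the exact test (FDR under 0.05 and |log2FC| above 0.6), 5.41% as raised and 9.91% as lowered, and 1.96% by the quasi-likelihood test. hsa-miR-221-3p was not among them. In 25.2% all H2O2 libraries lay above all controls. The value depended on the controls. A fit that omits 1 control leaves a lone one, which is assumed to vary like the H2O2 libraries. Without control 1, the library high in hsa-miR-223-3p and hsa-miR-205-5p, the log2FC was 1.83. Without control 2 it was 0.52. The part of control 1's composition in this result was not tested.

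**Figure D2:**
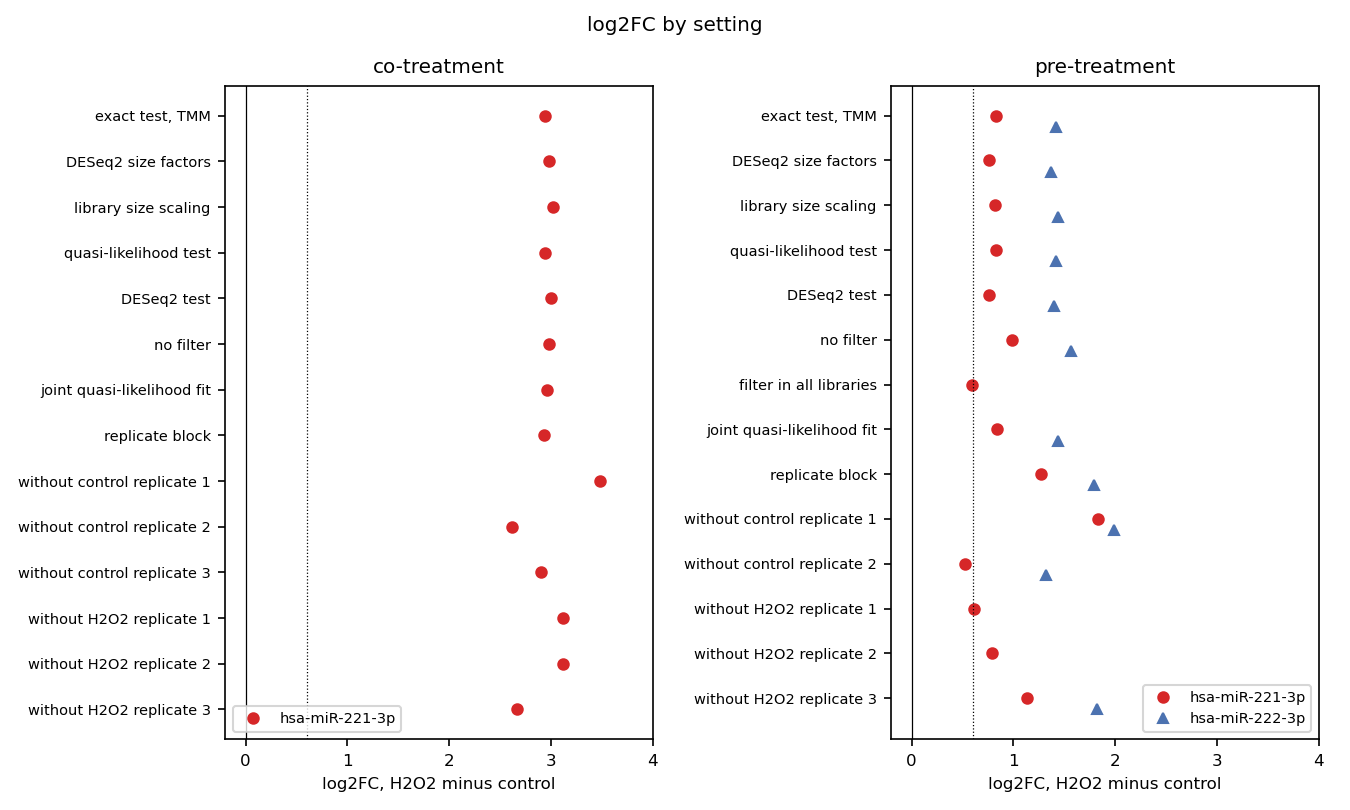
log2FC of H2O2 minus control (x axes) of hsa-miR-221-3p (circles) and hsa-miR-222-3p (triangles) in co-treatment (left) and pre-treatment (right) under each setting (y axes), with solid lines at 0 and dotted lines at 0.6. No point is drawn where the miRNA did not pass the filter. All values were above 0, from 2.62 to 3.48 for hsa-miR-221-3p in co-treatment and from 0.52 to 1.83 in pre-treatment.

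The controls of the experiments stood at different levels. Mean hsa-miR-221-3p was 7.36-fold higher in the pre-treatment controls than in the co-treatment controls, and 1.70-fold higher in the pre-treatment than in the co-treatment H2O2 libraries. In order of mean level, the co-treatment controls came first, followed by the pre-treatment controls at 4.93, the co-treatment H2O2 libraries at 5.21 and the pre-treatment H2O2 libraries at 8.84 CPM. The ranges of the last 3 groups overlapped. Experiment and any batch between the experiments cannot be told apart, and the difference between the responses was not tested, since it contains the co-treatment values.

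hsa-miR-222-3p, the guide arm of MIR222 (chrX:45606442-45606462), followed the same order at lower counts. It had 1, 0 and 0 counts in the co-treatment controls and 4, 4 and 7 counts in the H2O2 libraries. In pre-treatment it had 4 and 2 counts in the controls and 18, 7 and 3 counts in the H2O2 libraries. The co-treatment groups did not overlap but the controls lay under the limit of detection, and the pre-treatment groups overlapped.

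Because only 1 read was counted over the 3 co-treatment controls, the co-treatment difference of hsa-miR-222-3p is given by its pooled counts. The H2O2 libraries held 15 reads, a ratio of 14.5 after scaling that rests on the 1 control read. It is given as a description, with no interval or test. In pre-treatment hsa-miR-222-3p averaged 1.19 ± 0.889 CPM (SD, n = 3) with H2O2 and 0.431 ± 0.190 CPM (SD, n = 2) without it. It passed the filter on low counts through H2O2 replicates 1 and 2 alone, the libraries where it was highest, while both controls and H2O2 replicate 3 lay below the minimum. Its log2FC of 1.42 (SE 0.94) is therefore given as a description, with no test.

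The 5p arms are the strands that are usually discarded. hsa-miR-221-5p had no read in the 3 co-treatment controls, which allows up to 0.137 CPM over the group, and 0, 0 and 5 counts in the H2O2 libraries. In pre-treatment it had 6 and 0 counts in the controls and 2, 2 and 1 counts in the H2O2 libraries. Its reads thus came mainly from co-treatment H2O2 replicate 3 and pre-treatment control 1, the libraries that also held the most hsa-miR-221-3p within their groups. hsa-miR-222-5p had 1 count in co-treatment control 1, 1 in pre-treatment H2O2 replicate 3 and 0 in the other 9 libraries. A difference between groups was not detectable for either arm at this depth.

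Of all 419 reads of MIR221, 403 came from the 3p arm (96.2%, 95% Wilson interval 93.9 to 97.6). Of 52 reads of MIR222, 50 did (96.2%, 87.0 to 98.9). These intervals cover counting error only. In pre-treatment, the 3p share of MIR221 reads was 97.5% ± 0.436 (SD, n = 3) in H2O2-treated cells and 94.8% ± 7.28 (SD, n = 2) in controls, which an exact permutation test did not separate (two-sided p = 0.80, where 10 splits allow no p under 0.20). Shares within a library do not depend on scaling between libraries, but reads of different arms can be ligated and amplified unequally, so a share of reads is not a share of molecules.

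hsa-miR-222-3p contributed 50 of the 453 reads of the 3p arms (11%, 95% Wilson interval 8.47 to 14.3). By group, this share was 11.4% of 132 reads in co-treatment H2O2 libraries (7.01 to 17.9), 8.0% of 75 reads in pre-treatment controls (3.72 to 16.4) and 12.1% of 231 reads in pre-treatment H2O2 libraries (8.52 to 17.0). In the co-treatment controls it was 1 of 15 reads (6.67%, 1.19 to 29.8). The intervals cover counting error only, and those of all 4 groups overlapped. In pre-treatment the shares were 10.9% ± 4.23 (SD, n = 3) in H2O2-treated cells and 8.82% ± 2.38 (SD, n = 2) in controls (exact permutation test, two-sided p = 0.80, where no p under 0.20 was possible).

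Across the 11 libraries the log2 CPM of both 3p arms had a Pearson correlation of 0.93 (Spearman 0.93), and of 763 other miRNAs tested in both experiments, 1 had a higher correlation with hsa-miR-221-3p. The correlation was 0.99 within the 6 co-treatment libraries, 0.86 within the 5 pre-treatment libraries and 0.94 over the 10 libraries without pre-treatment control 1. These values are descriptions over libraries that share groups and the difference between experiments. In co-treatment hsa-miR-222-3p had at most 1 count per control and 4 to 7 counts per H2O2 library. Unlike the 763 miRNAs, it did not pass the filter there, and that contrast led to the choice of the pair.

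**Figure D3:**
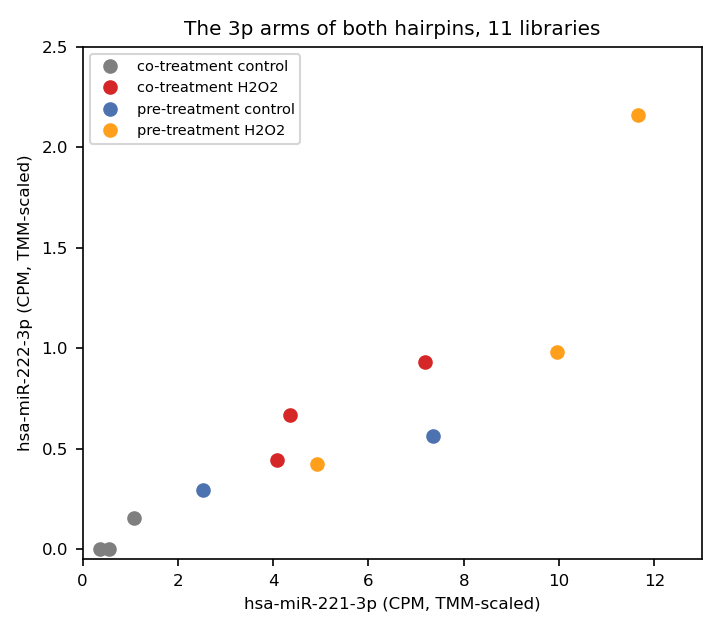
TMM-scaled CPM of hsa-miR-222-3p (y axis) against hsa-miR-221-3p (x axis) in the 11 libraries, coloured by group. The values of both tended to be high in the same libraries, from the co-treatment controls near 0 to pre-treatment H2O2 replicate 1 at 11.7 and 2.16 CPM.

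The miRNA with the higher correlation was hsa-miR-185-3p (0.93 after rounding), which averaged 13.2 ± 1.68 CPM (SD, n = 3) with H2O2 and 7.15 ± 0.814 CPM (SD, n = 3) without it in co-treatment. The next were hsa-miR-128-1-5p (0.90), hsa-miR-769-3p (0.90), hsa-miR-491-5p (0.88) and hsa-miR-139-3p (0.87), against a median of −0.05 and a 95th percentile of 0.72 over the 763 miRNAs. All 5 were called in co-treatment, with log2FC from 0.84 to 1.60, where 26.2% of 790 miRNAs were called (22.9% by the quasi-likelihood test), and none in pre-treatment, with log2FC from −0.49 to 0.66. Their co-treatment log2FC were thus smaller than that of hsa-miR-221-3p. The miRNAs were picked for this likeness over libraries that include the co-treatment contrast, so their calls there are in part built in. The correlations carry no test. Within pre-treatment alone, that of hsa-miR-139-3p was 0.54 over 5 libraries.

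**Figure D4:**
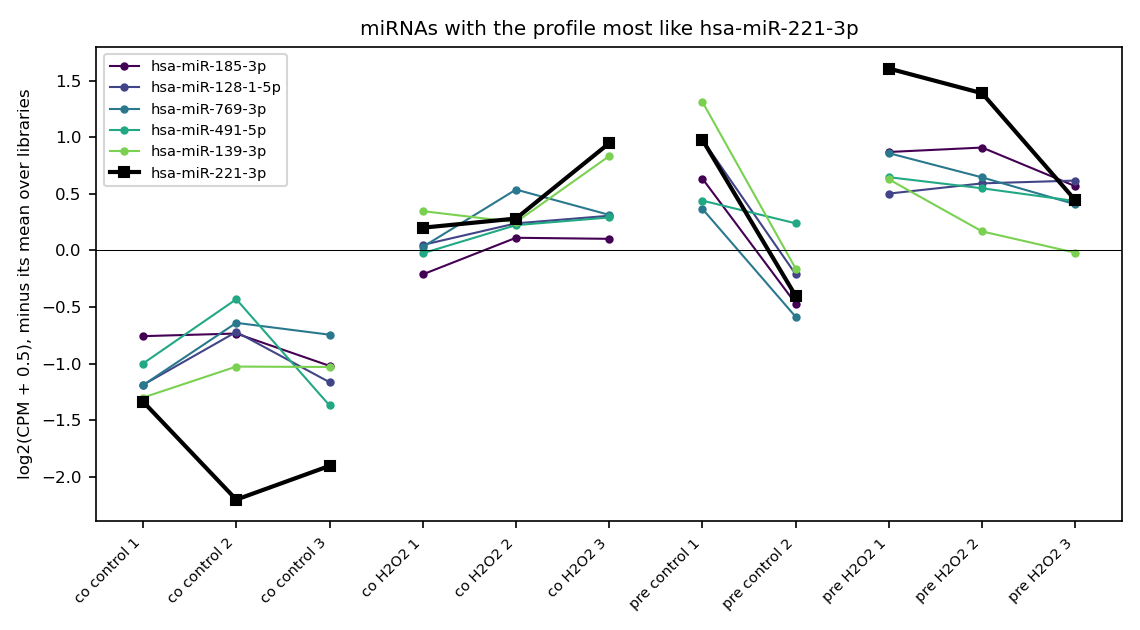
log2(CPM + 0.5) minus its mean over the 11 libraries (y axis) of hsa-miR-221-3p (black squares) and the 5 miRNAs with the highest correlation to it (coloured circles), by library (x axis), with lines joining libraries of a group. All 6 profiles were lowest in the co-treatment controls and, in pre-treatment, lower in control 2 than in control 1.

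Other miRNAs are known to repress CDKN1A, CDKN1B or CDKN1C, the family of cell-cycle inhibitors to which the pair's targets CDKN1B and CDKN1C belong. Of 9 such miRNAs, all tested, 5 fell and 0 rose in co-treatment, where 15.6% of all miRNAs tested fell and 10.6% rose. hsa-miR-106b-5p fell from 1832 ± 753.8 CPM (SD, n = 3) in controls to 450.6 ± 189 CPM (SD, n = 3) in H2O2-treated cells (log2FC −2.03, SE 0.34, edgeR exact test FDR = 7.31e-06). hsa-miR-106a-5p (log2FC −1.66), hsa-miR-17-5p (−1.64), hsa-miR-32-5p (−1.14) and hsa-miR-20a-5p (−0.78) were the others that fell. The most abundant, hsa-miR-93-5p and hsa-miR-25-3p, had log2FC of 0.22 (edgeR FDR = 0.576) and −0.04 (FDR = 0.935). The remaining pair, hsa-miR-20b-5p and hsa-miR-92a-3p, was not called either. The median log2FC of the 9 was −0.78, whereas their summed level, set by the abundant ones, ranged from 166400 to 222600 CPM in controls and from 198300 to 210400 CPM in H2O2 libraries and overlapped. In pre-treatment none of the 9 was called and the median was 0.32, against −0.19 over all miRNAs tested. The fit without control 1 leaves a lone control, and its calls among the 9 are given with the alternatives below.

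Of 6 other miRNAs known to be induced by NF-kB or AP-1, 5 were tested. In co-treatment 0 rose and 2 fell, hsa-miR-21-5p (log2FC −0.67, SE 0.21, edgeR exact test FDR = 0.0360) and hsa-miR-9-5p (−1.06, SE 0.40, FDR = 0.0493). In pre-treatment both arms of miR-21 rose, hsa-miR-21-5p with a log2FC of 1.53 (SE 0.26, edgeR FDR = 0.000886) and hsa-miR-21-3p with 1.37 (SE 0.31, FDR = 0.0168), and 0 fell. The shares over all miRNAs tested were 10.6% raised and 15.6% lowered in co-treatment, and 5.41% raised in the other experiment. The quasi-likelihood test called hsa-miR-21-5p alone in each experiment. hsa-miR-146b-5p, induced by NF-kB in immune cells, had log2FC of 0.01 in co-treatment and 0.63 in pre-treatment and was not called (edgeR FDR = 0.989 and 0.300).

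On the same chromosome arm, the miRNA cluster in CLCN5 at Xp11.23 has 16 listed arms, of which 14 were tested. In co-treatment 2 rose, hsa-miR-501-3p (log2FC 1.50, SE 0.29, edgeR exact test FDR = 4.66e-05) and hsa-miR-532-3p (0.90, SE 0.27, FDR = 0.0118), and hsa-miR-362-3p fell (−1.17, SE 0.39, FDR = 0.0257). In pre-treatment hsa-miR-660-5p rose (log2FC 1.49, SE 0.30, edgeR exact test FDR = 0.00397), which the quasi-likelihood test did not call (FDR = 0.0520). These counts were near the shares over all miRNAs tested, which were 10.6% raised and 15.6% lowered in co-treatment and 5.41% raised in pre-treatment. Without control 1, 4 of the 14 were called as higher and 1 as lower, near the 31.5% of all miRNAs called there. The other abundant member, hsa-miR-532-5p, had log2FC of 0.15 and 0.88 (edgeR FDR = 0.723 and 0.152). The median log2FC of the 14 was 0.21 in co-treatment and 0.27 in pre-treatment.

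The pair is abundant in endothelial and mesenchymal cells, so markers of those and of blood and epithelial cells were counted. Over all miRNAs tested in co-treatment 10.6% rose and 15.6% fell. Of 8 tested mesenchymal miRNAs (of 9 listed), 0 rose and 2 fell in co-treatment, hsa-miR-199a-5p (log2FC −1.86) and hsa-miR-214-5p (−0.88), and the summed level ranged from 16750 to 17620 CPM in controls and from 11330 to 14320 CPM in H2O2 libraries. The abundant ones, hsa-miR-143-3p and hsa-miR-214-3p, were not called. Of the 2 endothelial miRNAs, hsa-miR-126-5p fell (−1.02) and hsa-miR-126-3p was not called (−0.46), with summed levels from 11250 to 19340 CPM in controls and from 7549 to 10560 CPM in H2O2 libraries. In co-treatment the summed level of both lists was lower in every H2O2 library than in every control. No share over all miRNAs is given for falls without overlap, so this has no background to be read against. Most of the mesenchymal sum was hsa-miR-143-3p, which averaged 13360 CPM in controls and 8994 CPM in H2O2 libraries. The endothelial sum came from the arms of a single hairpin. The libraries are of a single cell line, and whether these levels reflect other cell types was not tested. Nor was any part of such cells in the level of hsa-miR-221-3p. In pre-treatment hsa-miR-145-5p fell among the mesenchymal miRNAs (−1.26), where 9.91% of all miRNAs tested fell. It did not pass the quasi-likelihood test (FDR = 0.0696), and no endothelial miRNA was called.

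Of 7 tested blood cell miRNAs (of 9 listed), hsa-miR-486-5p was higher in co-treatment with 17, 8 and 20 counts under H2O2 against 1, 2 and 4 without it. Its level averaged 1.96 ± 0.667 CPM (SD, n = 3) with H2O2 and 0.321 ± 0.216 CPM (SD, n = 3) without it (log2FC 2.53, SE 0.68). It passed the filter on low counts through the H2O2 libraries alone, while all 3 controls lay below the minimum, so its value is a description. In the same list hsa-miR-451a (log2FC 0.59, edgeR exact test FDR = 0.406) and hsa-miR-144-5p (−0.50, FDR = 0.512) were not called, and hsa-miR-142-5p fell (−1.30). Over all miRNAs 10.6% were raised and 15.6% lowered. The summed level of the list was 22.2 to 28.4 CPM in controls and 15.2 to 26.9 CPM in H2O2 libraries. Of the 7 epithelial miRNAs tested none was called in co-treatment, with 79.5 to 107.0 CPM in controls and 76.4 to 86.8 CPM in H2O2 libraries. In pre-treatment, the summed levels of the blood cell miRNAs were 17.6 and 121.1 CPM in the controls and 30.3 to 37.0 CPM in H2O2 libraries, and those of the epithelial miRNAs 70.8 and 211.4 CPM in the controls and 88.6 to 94.6 CPM in H2O2 libraries. The higher value of each was that of control 1. There, most of the blood cell sum was hsa-miR-223-3p and most of the epithelial sum was hsa-miR-205-5p. Control 1 also held the most hsa-miR-221-3p of the controls, and a link between these levels was not tested. Among blood cell miRNAs, hsa-miR-451a and hsa-miR-144-5p rose in pre-treatment (2.79 and 2.71) and hsa-miR-223-3p fell (−4.87), and among epithelial ones hsa-miR-205-5p fell (−4.54). Over all miRNAs tested in that experiment 5.41% rose and 9.91% fell. Of these calls only that of hsa-miR-451a passed the quasi-likelihood test (FDR = 0.0317), which called 1.96% of all miRNAs there. The falls of hsa-miR-223-3p and hsa-miR-205-5p rested on control 1, with 540 and 1007 counts, against 4 and 32 in control 2.

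In the neuronal list, 9 of 10 miRNAs were tested. In co-treatment hsa-miR-137 (log2FC −1.10), hsa-miR-9-5p (−1.06) and hsa-miR-218-5p (−0.99) fell and 0 rose, where 15.6% of all miRNAs tested fell. The summed level of the list ranged from 35350 to 37620 CPM in controls and from 18980 to 22730 CPM in H2O2 libraries. These ranges did not overlap, but no share over all miRNAs is given for falls without overlap. Most of this sum was hsa-miR-137, which averaged 31190 CPM in controls and 14820 CPM in H2O2 libraries. The pre-treatment sums went the other way, with 15760 and 28470 CPM in the controls and 32470 to 40240 CPM in H2O2 libraries. In pre-treatment hsa-miR-138-5p rose (1.03) and hsa-miR-375 fell (−1.32), neither of which passed the quasi-likelihood test, and over all miRNAs 5.41% rose and 9.91% fell.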

How the data were processed

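Small RNA of SH-SY5Y cells was sequenced with the QIAseq miRNA kit. Adapters were trimmed by the authors with Cutadapt (2.10), and the reads were aligned to hg19 by Bowtie2 (2.4.1) and assigned to mature miRNAs with HTSeq (0.7.2). The deposited values are raw counts. The miRBase release and the use of molecular identifiers are not given in the sources used here. The deposited tables of log2 fold changes and p-values hold the authors' own comparison and were not used.

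Groups were taken from the sample titles. Within each experiment, H2O2 and control libraries were compared by edgeR's exact test (edgeR 4.0.16, R 4.3.3) after TMM scaling, as the study's methods name this test. A miRNA was tested if at least 3 co-treatment or 2 pre-treatment libraries exceeded a CPM of 0.936 or 0.721, respectively, which is 5 counts in the shallowest library. Calls needed an FDR under 0.05 over all miRNAs tested and |log2FC| above 0.6. SE are from edgeR's quasi-likelihood fit, and all CPM levels use TMM factors over the 11 libraries. The members and lists (neuronal, endothelial, mesenchymal, blood cell and epithelial markers, and 3 lists related to the pair) were chosen with earlier results of these data known. Named miRNAs are the members, per list the 2 with the highest mean CPM and any called, and the 5 most correlated with hsa-miR-221-3p in log2(CPM + 0.5). p-values measure the spread between cultures of a single line. The Poisson and Wilson intervals treat reads as independent, although reads need not be independent molecules. They cover counting error only, not the spread between libraries. Alternatives were other scaling, DESeq2 1.42.0, the quasi-likelihood test, other filters, a fit of all libraries, the replicate number as a block and each library left out. The tests were tested on simulated data.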

Additional observations from a re-analysis of the deposited data

How the results depend on the processing

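The log2FC of hsa-miR-221-3p stayed above 0 under every alternative that gave a value. It ranged from 2.62 to 3.48 in co-treatment and from 0.52 to 1.83 in pre-treatment with each library left out in turn. That of hsa-miR-222-3p in pre-treatment ranged from 1.32 to 1.99, but it had a value only where H2O2 replicates 1 and 2 carried it through the filter or none was set, so its sign is no sign of stability. The same holds for hsa-miR-221-3p in co-treatment, which passed the filter through the H2O2 libraries. The only change of call among the members was that of hsa-miR-221-3p without pre-treatment control 1 (1.83), a fit with a lone control. With the filter required in all libraries, hsa-miR-221-3p in co-treatment and hsa-miR-222-3p in pre-treatment gave no value, nor did hsa-miR-222-3p without pre-treatment H2O2 replicate 1 or 2. Calls numbered 207 in co-treatment and 133 in pre-treatment, and ranged from 107 to 274 and from 9 to 508 with each library left out. In co-treatment the count was lowest without control 3 (107), H2O2 replicate 3 (108), control 1 (109) or H2O2 replicate 1 (132). In pre-treatment it was 300 and 508 without control 1 and 2, and 13, 9 and 16 without H2O2 replicate 1, 2 and 3. The joint quasi-likelihood fit gave 84 in co-treatment, the quasi-likelihood test 17 and no filter 61 in pre-treatment. Raised calls made up 40.6% in co-treatment, 50.5% with library size scaling and 56.9% with the filter in all libraries.

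The replicate block gave 111 calls in co-treatment and, without H2O2 replicate 3, 14 in pre-treatment, where log2FC was 1.27 for hsa-miR-221-3p (FDR = 0.377), with edgeR's quasi-likelihood test. Same-numbered libraries had deviations correlated at 0.0408, −0.173 and −0.184 in co-treatment and at 0.245 and −0.0437 in pre-treatment, so the numbers were not taken to pair them, and 2 of 6 co-treatment libraries correlated best with their own number.

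When single libraries were omitted, the pooled 3p share of MIR221 reads ranged from 94.1% to 100% for co-treatment with H2O2 and from 89.7% to 100% for pre-treatment controls, and the hsa-miR-222-3p share of the 3p reads from 0.0% to 9.09% in co-treatment controls. The correlation of hsa-miR-139-3p with hsa-miR-221-3p was 0.54 in pre-treatment libraries alone. The quasi-likelihood test called 0 neuronal, 0 mesenchymal, 0 epithelial, 0 Xp11.23 and 1 blood cell miRNA in pre-treatment, and 1 of the NF-kB and AP-1 list in each experiment. Over all miRNAs it called 1.96% in pre-treatment and 22.9% in co-treatment, so a count of 0 in pre-treatment is near the share over all miRNAs. Without pre-treatment control 1, an alternative chosen after seeing the data, 2 of 8 mesenchymal, 2 of 7 epithelial, 2 of 9 cell-cycle inhibitor and 5 of 14 Xp11.23 miRNAs were called, against 31.5% of all miRNAs tested. The cause of these changes was not tested.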
